A study of Mus musculus with 5 samples.

Results

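The 4 genes described here encode granule proteases of mast cells and basophils, and they were chosen as opposing pairs, *Cpa3* and *Tpsb2* of mast cells against *Mcpt8* and *Prss34* of basophils. They were taken by name from 1355 genes that the authors had already called as different between cultured bone marrow cells overexpressing *Irf8* and control cells. They were chosen by the normalized counts of these same samples and by that listing, so the difference between the genotypes is given for them as a description, with no test. The study sequenced mRNA from 3 *Irf8*-OE samples and 2 control samples of mouse bone marrow-derived dendritic cells (BMDCs). The *Irf8*-OE mice carried *Irf8* CAG-LSL, a knocked-in cassette that expresses Flag-tagged *Irf8* from the ubiquitous CAG promoter once a stop sequence is removed, together with *Itgax* Cre, in which Cre is driven by the promoter of the CD11c gene. This design directs the extra *Irf8* to cells that express CD11c or descend from such cells. Which cells carried it was not measured here. The controls were labelled wild type, whereas the text of the study names them *Irf8* CAG-LSL. Marrow of both genotypes came from C57BL/6 mice described as male and 8 weeks old, and was grown with 5 ng/ml GM-CSF and 200 ng/ml Flt3L, replated on day 9 and collected as non-adherent cells on days 15 to 16. Stimulation with TNF-alpha, which the protocol gives at 20 ng/ml, was labelled for both genotypes. The labels do not say whether the samples of a genotype came from separate mice, so the SDs below cover the spread between these samples, which may be technical.

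Mast cells and basophils are granulocytes of allergic and anti-parasite responses that carry the high-affinity IgE receptor and release stored mediators from granules. Mast cell granules hold carboxypeptidase A3, tryptases and chymases bound to the proteoglycan serglycin. Mouse basophils are recognised by a set of serine proteases, among them the products of *Mcpt8* and *Prss34*. The pairs are named after these uses, and whether any member is limited to its cell type was not tested here. Mast cells and basophils both arise from bone marrow progenitors that depend on the transcription factor GATA2. IRF8 is a transcription factor of monocyte and dendritic cell development, and its part in mast cells and basophils was not tested here.

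*Cpa3* encodes carboxypeptidase A3, a zinc enzyme that removes amino acids from the C-terminal end of peptides. It lies on the minus strand of chr3:20215620-20242181 in the authors' coordinates (mm10). *Tpsb2* encodes a trypsin-like tryptase of mast cell granules and lies on the plus strand of chr17:25366550-25368094. *Prss34*, which encodes a tryptase-like protease of basophils, lies on the same strand of the same chromosome at chr17:25298394-25300161. *Mcpt8* encodes a serine protease widely used as a basophil marker in mice and lies on the minus strand of chr14:56082166-56085273. The 250 bases before the start site were found for 3 of the 4 genes among the promoters of RefSeq (GRCm38.p6), and are printed because genes of opposing pairs can be read side by side. They cover chr3:20242182-20242431 on the minus strand for *Cpa3*, chr17:25298144-25298393 on the plus strand for *Prss34* and chr14:56085198-56085447 on the minus strand for *Mcpt8*. The start sites are those of RefSeq, and for *Mcpt8* 76 of the printed bases lie within the gene as the authors' coordinates give it. The capitals mark GATAA, a core motif of GATA factors.

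Cpa3: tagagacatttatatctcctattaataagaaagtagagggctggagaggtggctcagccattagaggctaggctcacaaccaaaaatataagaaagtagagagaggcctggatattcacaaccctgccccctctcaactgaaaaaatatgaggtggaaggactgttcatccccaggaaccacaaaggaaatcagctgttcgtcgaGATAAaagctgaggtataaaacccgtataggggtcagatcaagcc
Prss34: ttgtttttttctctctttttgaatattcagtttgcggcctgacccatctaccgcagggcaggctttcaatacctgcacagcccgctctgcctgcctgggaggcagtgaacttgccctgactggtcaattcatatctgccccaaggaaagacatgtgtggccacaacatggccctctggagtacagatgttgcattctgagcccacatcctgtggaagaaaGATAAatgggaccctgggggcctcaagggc
Mcpt8: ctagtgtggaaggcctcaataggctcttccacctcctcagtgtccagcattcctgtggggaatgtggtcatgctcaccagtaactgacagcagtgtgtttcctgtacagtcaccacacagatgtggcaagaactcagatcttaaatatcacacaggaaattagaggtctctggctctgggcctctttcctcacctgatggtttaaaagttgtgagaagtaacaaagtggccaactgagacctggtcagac

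GATAA was searched on both strands and was found 1 time in the promoter of *Cpa3*, which was lower in *Irf8*-OE, 40 bases before the start. It was also found 1 time in that of *Prss34*, which was higher, 25 bases before the start. The promoter of *Mcpt8*, which was higher too, held 0 matches. Of 32851 RefSeq promoter windows of this length, 22.6% held the motif. The E-box CANNTG was found 2 times in *Cpa3*, 3 times in *Mcpt8* and 2 times in *Prss34*, and 66.2% of the windows held at least 1. A pair of patterns of sites bound by IRF family members, GGAA followed after any 2 bases by GAAA and GAAA followed after any 2 bases by GAAA, which can overlap each other, were also searched on both strands. They had 0 matches in the 3 promoters and occurred in 2.30% and 2.98% of the windows. A match describes the letters only and shows no binding.

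Values are normalized counts, the reads of a gene divided by a size factor of its sample, and they are not corrected for gene length unless given per kilobase of exon. The reads on listed genes numbered 646123 to 1062127 in a sample, and the full depth of the libraries is not known from them. *Irf8* itself ranged from 2747 to 2835 in control cells and from 6021 to 7141 in cells of the *Irf8*-OE mice. The samples did not all match the sex they were described with. The X-linked *Xist* reached no more than 1.12 in control samples but 10772 to 13476 in *Irf8*-OE, and *Ddx3y*, *Eif2s3y*, *Kdm5d* and *Uty*, all Y-linked, had 0 reads in each *Irf8*-OE sample. This sex difference separates the samples exactly as the genotype does, and the 2 cannot be told apart in any comparison below. Of 12 dendritic cell genes looked up, only *Irf8*, *Itgae* and *Cd24a* were listed. *Itgax*, *Flt3*, *Zbtb46* and *Batf3* were among those not analysed here, so the cell type of the labels could not be checked by its defining markers.

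The mast cell pair was lower in *Irf8*-OE and the basophil pair was higher. *Cpa3* was the most abundant listed gene in every sample, with 175134 and 179473 normalized counts in the controls and 20272, 22331 and 24286 in *Irf8*-OE 1, 2 and 3. All 3 *Irf8*-OE samples lay far under both controls, and the lowest control was 7.21-fold above the highest *Irf8*-OE sample. The group means of 177303 ± 3068 (SD, n = 2) and 22296 ± 2007 (SD, n = 3) differed 7.95-fold, or by -3.00 (SE 0.08) in log2(normalized counts + 1). Since *Cpa3* ranked first in all 5 samples, quantile normalization, which gives equal ranks equal values, sets its difference to 0. *Tpsb2* had 27794 and 28272 normalized counts in the controls against 5024, 4631 and 4464 in *Irf8*-OE. The groups again did not overlap, and their means of 28033 ± 338 (SD, n = 2) and 4707 ± 288 (SD, n = 3) differed 5.96-fold, a log2 difference of -2.58 (SE 0.06). Among the listed genes *Tpsb2* held rank 4 in the controls and rank 26 in *Irf8*-OE by its mean. In these bulk samples, fewer cells of a type and less RNA per cell cannot be told apart.

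*Mcpt8* started from a low level, with 167 and 188 normalized counts in the controls, and reached 1202, 1277 and 1220 in *Irf8*-OE. Its means of 178 ± 14.6 (SD, n = 2) and 1233 ± 39.3 (SD, n = 3) put it 6.94-fold higher, a log2 difference of 2.79 (SE 0.08). The 3 *Irf8*-OE samples differed little from each other and lay at least 6.39-fold above the controls. *Prss34* had 138 and 96.9 normalized counts in the controls and 1575, 1423 and 1360 in *Irf8*-OE. Its means of 118 ± 29.2 (SD, n = 2) and 1453 ± 110 (SD, n = 3) put it 12.4-fold higher, with a log2 difference of 3.64 (SE 0.15). The 2 controls of *Prss34* were less alike than those of any other member, with a coefficient of variation of 24.8% against 1.73% for *Cpa3*, and rested on 123 and 101 reads. Without control 1 its log2 difference was 3.89, and without control 2 it was 3.38.

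Each member was past the call rule used here (limma, adjusted p-value under 0.05 and absolute log2 difference over 1) in the direction that its choice had fixed, and edgeR on recovered reads called all 4 likewise. Since 41.0% of the listed genes were called lower, 58.1% were called higher (41.1% and 58.7% by edgeR) and the groups failed to overlap for 100% of them, nothing is read from these calls. The members were not the extremes of the list either. A larger absolute log2 difference was found in 6.20% of the listed genes for *Prss34*, in 13.4% for *Cpa3*, in 18.0% for *Mcpt8* and in 23.0% for *Tpsb2*.

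**Figure D1:**
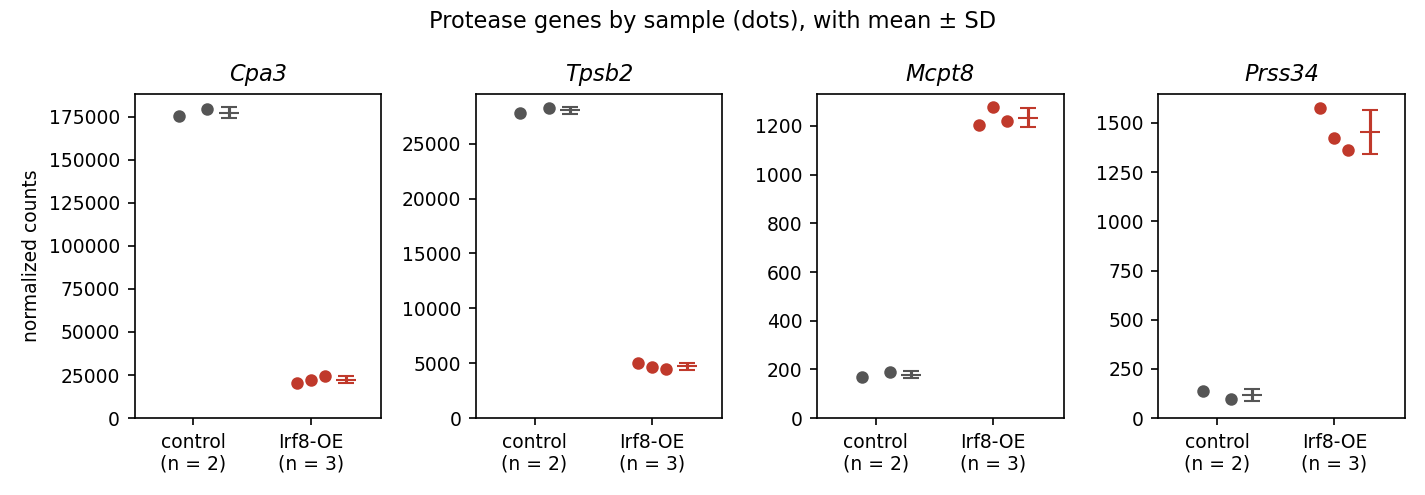
Normalized counts of the 4 proteases, 1 panel per gene with a linear axis from 0 of its own scale, with the 2 control samples and the 3 *Irf8*-OE samples as points and the mean ± SD of each group beside them. *Cpa3* and *Tpsb2* stand lower in every *Irf8*-OE sample, *Mcpt8* and *Prss34* stand higher, and the controls of *Prss34* at 138 and 96.9 are the most unequal pair.

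Levels were next compared between genes per kilobase of exon. In the controls *Cpa3* measured 116878 normalized counts per kilobase, *Tpsb2* 25932, *Mcpt8* 178 and *Prss34* 96.7. Each step of this order exceeded the spread between the controls. In *Irf8*-OE the means per kilobase were 14698 ± 1323 for *Cpa3*, 4354 ± 266 for *Tpsb2*, 1236 ± 39.3 for *Mcpt8* and 1195 ± 90.9 for *Prss34* (SD, n = 3). The order was therefore kept for the first 3 genes, while *Mcpt8* and *Prss34* did not differ beyond their spread. Even in *Irf8*-OE, the mast cell proteases remained the more abundant transcripts. Summed per kilobase, the mast cell pair exceeded the basophil pair 502-fold and 539-fold in the controls, and 7.21-fold, 7.76-fold and 8.60-fold in *Irf8*-OE. The mean ratio was thus 66.2-fold greater in the controls. *Cpa3* was the larger part of the mast cell sum in each group. Without it, *Tpsb2* per *Mcpt8*, both per kilobase, averaged 146 in the controls and 3.53 in *Irf8*-OE. *Tpsb2* per *Prss34* averaged 277 and 3.65. These are ratios of transcripts, and the numbers of mast cells and basophils were not measured. As log2, the contrast of the pairs was 8.83 and 9.03 in the controls and 2.87, 2.91 and 3.01 in *Irf8*-OE, a difference of -6.00 that leaves out any scaling factor common to a sample.

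The proteases of a pair did not move by the same factor. *Cpa3* per *Tpsb2*, both per kilobase, was 4.49 and 4.52 in the controls and 2.88, 3.44 and 3.88 in *Irf8*-OE, so that the ratio was lower in every *Irf8*-OE sample and more variable there. *Prss34* per *Mcpt8* was 0.678 and 0.423 in the controls and 1.08, 0.914 and 0.915 in *Irf8*-OE. The basophil pair thus went from an excess of *Mcpt8* to near equal levels, although the control ratios rest on few reads and lie far apart. The members also ranked the *Irf8*-OE samples differently. *Cpa3* was lowest in *Irf8*-OE 1 and highest in *Irf8*-OE 3, and *Tpsb2* and *Prss34* ran the opposite way. *Mcpt8* was highest in *Irf8*-OE 2, but its values of 1202, 1277 and 1220 normalized counts lay close together, so little rests on its order. Among 25 other listed mast cell and basophil genes, 12 (48%) were highest in *Irf8*-OE 3 as *Cpa3* was, and 7 (28%) in *Irf8*-OE 1, against 38.7% and 35.6% of all listed genes.

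**Figure D2:**
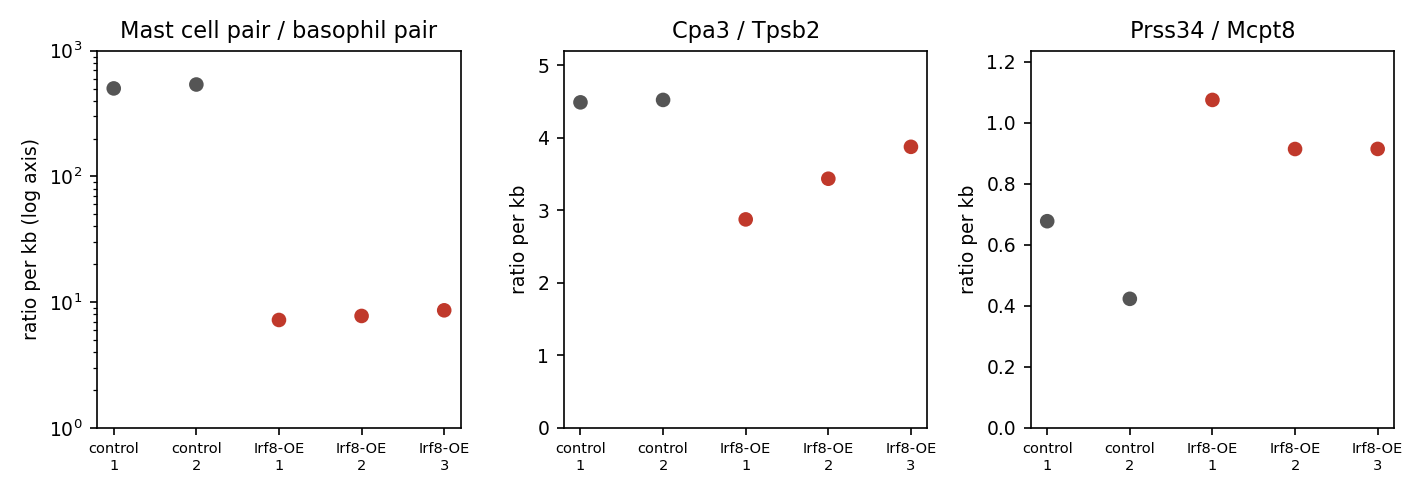
Ratios between the proteases within each sample, per kilobase of exon, with 1 point per sample in each of 3 panels, the mast cell pair over the basophil pair on a log axis, and *Cpa3* over *Tpsb2* and *Prss34* over *Mcpt8* on linear axes. The first ratio is 502 and 539 in the controls and lies between 7.21 and 8.60 in *Irf8*-OE, while the other ratios differ far less.

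As a share of all reads on the listed genes, the 4 proteases made up 20.1% and 20.4% in the controls and 4.40%, 4.61% and 4.83% in *Irf8*-OE. The means of 20.2% ± 0.250 (SD, n = 2) and 4.61% ± 0.215 (SD, n = 3) lay 15.6 percentage points apart. For *Tpsb2* this share was 2.74% and 2.77% in controls but 0.787%, 0.719% and 0.688% in *Irf8*-OE. The basophil pair held 0.0302% and 0.0280% in controls and 0.435%, 0.419% and 0.398% in *Irf8*-OE. The total of the listed genes was itself 1.58-fold higher in the controls, in normalized counts, so that by share *Tpsb2* was 3.77-fold lower and the basophil pair 14.4-fold higher in *Irf8*-OE. Part of this excess was the members' own, mainly *Cpa3*. Without the 4 members the totals averaged 810615 in the controls and 613963 in *Irf8*-OE. Relative to its size, the share with the widest counting interval was that of *Prss34* in the controls, whose values of 0.0136% and 0.00951% had Wilson 95% intervals of 0.0114% to 0.0163% and 0.00783% to 0.0116%. Within the 4 genes, *Cpa3* gave 86.2% and 86.3% of the reads in the controls and 72.2%, 75.3% and 77.5% in *Irf8*-OE. The basophil pair gave 0.144% of the reads of the 4 genes on average in the controls and 9.08% in *Irf8*-OE. *Cpa3* alone accounted for 24.4% of the summed decrease in normalized counts over the 558 listed genes with a lower mean, and *Tpsb2* for 3.67%. For comparison, the next most abundant listed gene, *Csf2rb2*, averaged 37854 normalized counts in the controls.

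**Figure D3:**
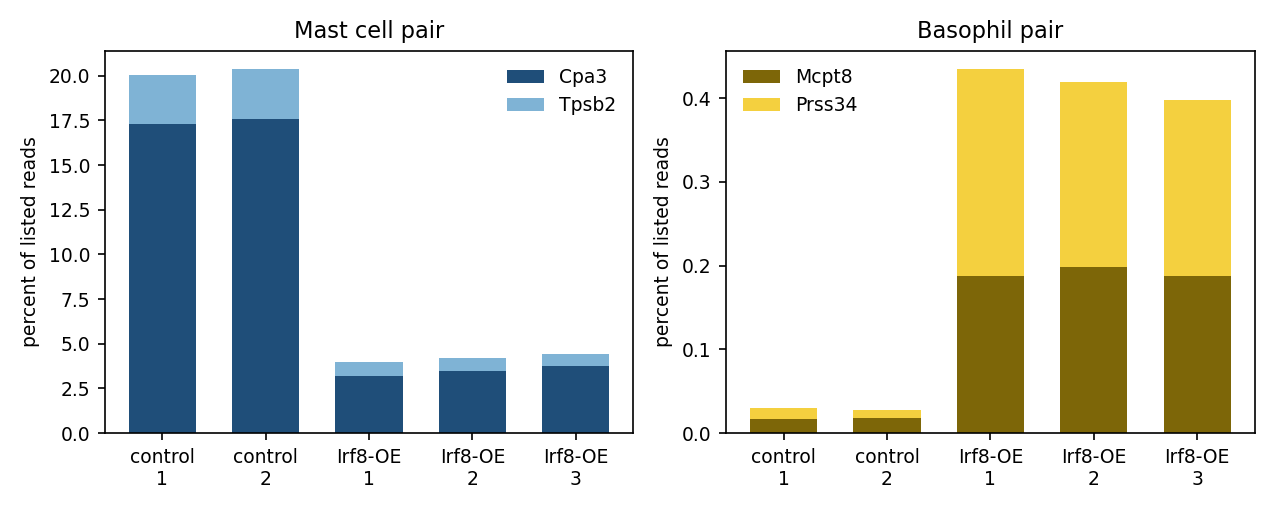
Percent of the reads on the 1355 listed genes taken by the mast cell pair (left) and the basophil pair (right) in each of the 5 samples, as stacked bars from 0 on axes of different scale. The mast cell bars reach 20.0% and 20.4% in the controls and at most 4.43% in *Irf8*-OE, whereas the basophil bars reach 0.0302% and 0.0280% in the controls and up to 0.435% in *Irf8*-OE.

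The other granule proteases were then examined. Of 14 such genes looked up, 8 were listed, of which 6 were lower and only *Mcpt8* and *Prss34* were higher. The directions of the 4 members were fixed by their choice. The 4 of these listed genes that were not members were all lower, against 41.0% of all listed genes. This count rests on where the set of 14 was cut. Outside it, the granzyme gene *Gzme* and the neutrophil protease genes *Prtn3* and *Elane* were listed and higher, with log2 differences of 2.59, 1.41 and 1.16. *Cma1*, the mast cell chymase, averaged 2951 ± 84.6 normalized counts in control cells and 602 ± 30.8 in *Irf8*-OE, a log2 difference of -2.29. *Tpsg1*, which encodes a membrane-anchored tryptase, measured 1319 ± 2.79 and 198 ± 16.0, and its log2 difference of -2.73 was close to that of *Tpsb2*. *Mcpt2*, a chymase-family protease of mucosal mast cells, measured 64.6 ± 2.32 and 11.2 ± 1.75. *Gzmb*, the granzyme B gene, which is also used by cytotoxic lymphocytes, measured 1189 ± 73.1 and 375 ± 27.9 (SD, n = 2 and n = 3 throughout). The 6 members of the list not analysed here were *Tpsab1*, *Cma2*, *Mcpt1*, *Mcpt4*, *Mcpt9* and *Ctsg*.

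Genes used by mast cells and basophils alike were looked up next. Of 19 shared genes, 13 were listed and all 13 were lower, with a median log2 difference of -1.59 and a range of -2.71 to -1.02. The median over all listed genes, of which 41.0% were called lower, was 1.14, and that over the genes called lower was -1.65. *Fcer1a* and *Ms4a2*, which encode subunits of the IgE receptor, fell from 5221 ± 5.24 to 1370 ± 44.1 and from 4693 ± 127 to 1048 ± 153 normalized counts. *Il1rl1*, the receptor of interleukin-33, fell from 22779 ± 38.9 to 3483 ± 320, and *Srgn*, the serglycin core protein that binds the proteases in the granule, from 23849 ± 308 to 6054 ± 498. *Gata2*, whose product is needed by both lineages, fell from 6433 ± 84.7 to 2104 ± 77.0, and *Cd200r3*, an activating receptor of both cells, from 5303 ± 22.2 to 999.7 ± 31.9. *Csf2rb2*, a receptor chain for interleukin-3, and *Alox5*, which begins leukotriene synthesis, had log2 differences of -1.09 and -1.49. Neither was called after quantile normalization, which sets *Csf2rb2*, second in every sample, to 0 by its construction and gave -0.93 for *Alox5*.

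Genes of mast cells themselves followed *Cpa3* and *Tpsb2*. Of 10, 6 were listed and all 6 were lower, against 41.0% of all listed genes, with a median log2 difference of -1.72. *Kit*, the receptor of stem cell factor, fell from 7804 ± 372 to 2812 ± 132 normalized counts, and *Slc18a2*, which loads amines into granules, from 4499 ± 11.9 to 1159 ± 121. *Tph1*, the first enzyme of serotonin synthesis, had a log2 difference of -1.99, *Ndst2*, which sulfates heparin, -1.28, and *Adora3*, an adenosine receptor, -1.36. *Ndst2* was not called after quantile normalization, with -0.92. *Mrgprb2*, a receptor of connective tissue mast cells, was scarce at 85.7 ± 13.9 and 14.8 ± 3.87 and had a log2 difference of -2.47.

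The listed genes of basophils other than the proteases were lower, unlike *Mcpt8* and *Prss34*. Of 8, only *Itga2*, the integrin chain known as CD49b, and *Hgf*, a growth factor, were listed, and both were lower, with log2 differences of -1.70 and -1.14. The other 6 are not analysed here, so no statement is made about basophil genes as a whole. Across the 4 lists, 29 genes were listed, 27 were lower and the 2 higher ones were the basophil proteases. These lists were drawn up with earlier results of these data known, so their counts are a description only. Of the 29 genes, all 25 that were not members were called lower (41.0% of all listed genes were). After quantile normalization, which moved the median log2 difference of the listed genes by -0.38, 22 of the 25 were, with 38.7% of the listed genes called lower and 36.8% higher. Several of these genes are also expressed by other blood cells, and *Gzmb*, *Itga2* and *Hgf* are not particular to either.

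**Figure D4:**
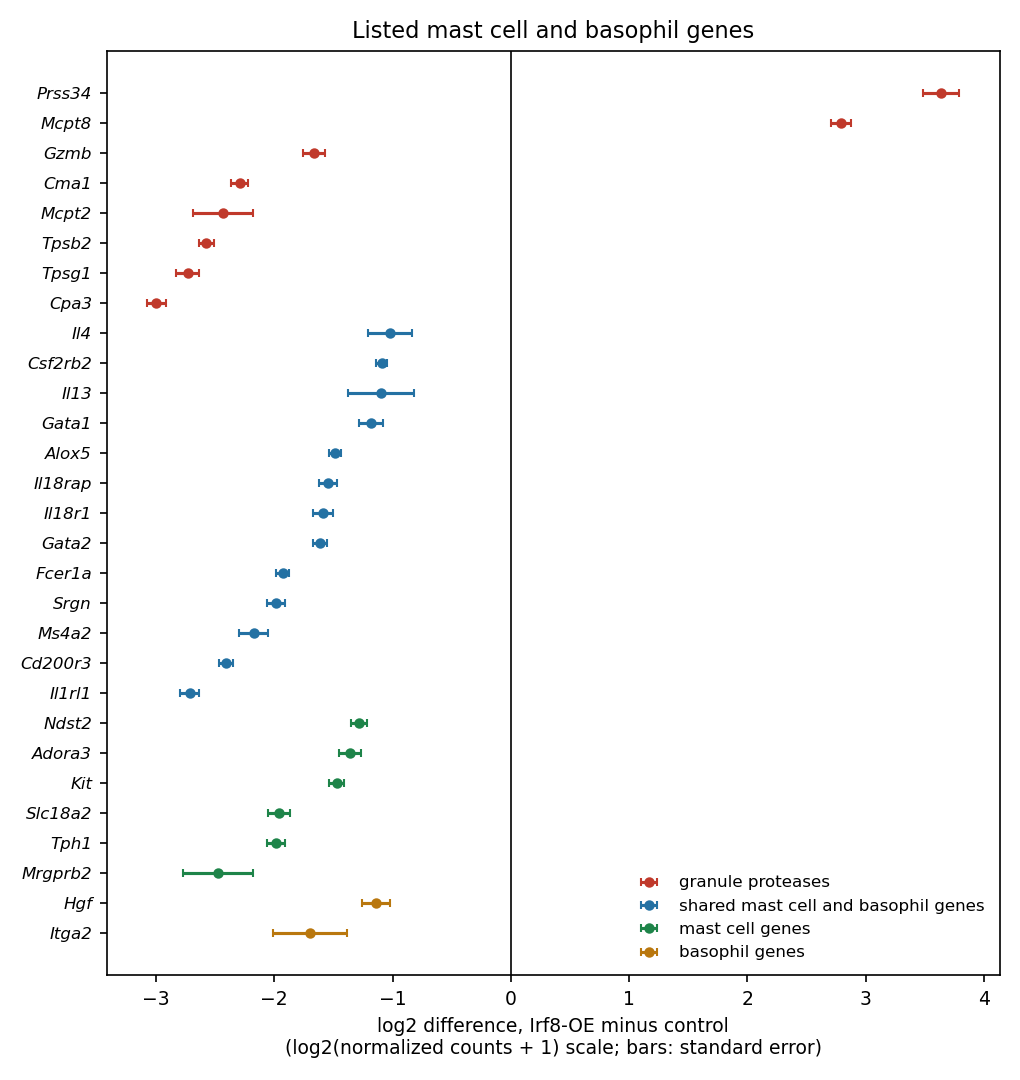
Log2 differences (*Irf8*-OE minus control) of the 29 listed genes of 4 lists, granule proteases, shared genes, mast cell genes and basophil genes, with 1 point per gene and bars for the standard error. *Mcpt8* at 2.79 and *Prss34* at 3.64 are the only points above 0.

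Genes of other cell types that the culture could hold moved too, and their part in the results of the proteases was not tested. Against 58.1% of all listed genes that were called higher, 7 of 10 macrophage genes were listed and all 7 were higher, their sum being 4235 to 4426 in control samples and 22024 to 26836 in *Irf8*-OE samples, in normalized counts. Of 8 B lineage genes 6 were listed and higher, with sums of 244 to 299 and 3499 to 4138, and 4 of the 6 were still called after quantile normalization. Of 7 stromal genes 5 were listed and higher, with sums of 1549.8 in each control and 7695 to 8719 in *Irf8*-OE. Of 6 megakaryocyte genes 4 were listed, 3 of them higher, with sums of 6339 to 6635 and 5411 to 5591. These sums fell because the lower gene, *Itga2b*, which averaged 5231 in controls and 2527 in *Irf8*-OE, outweighed the 3 higher genes. Among granulocyte genes, 4 of 9 neutrophil genes were listed, 3 of them higher, and 6 of 9 eosinophil genes were listed, 2 of them higher. The neutrophil sums were 467 to 542 and 1750 to 1897, and the eosinophil sums 1087 to 1204 and 445 to 483. *Epx*, 1 of the 2 higher eosinophil genes, had 0 reads in both controls. *Siglecf*, *Ear6*, *Il5ra* and *Ccr3* had reads in both controls and were lower in *Irf8*-OE. Of the B lineage genes *Jchain* and *Mzb1* had 0 reads in control 1.

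Of the 4 proteases, 3 lie in gene clusters that held both lower and higher genes. The members were chosen as opposing pairs and from genes called different, so these directions are no result about the clusters. *Prss34* and *Tpsb2* are 66388 bases apart on chromosome 17 in the same orientation, and *Prss34* was higher while *Tpsb2* was lower. Between them the GENCODE vM21 annotation places 3 protein-coding genes, the protease genes *Prss28*, *Prss29* and *Tpsab1*, of which 0 were listed. *Tpsg1* begins 1178 bases beyond *Tpsb2* in the authors' coordinates and was lower. On chromosome 14, *Mcpt8* was higher while its relatives *Mcpt2* at 37524 bases, *Cma1* at 137491 bases and *Gzmb* at 173565 bases were lower. *Gzme*, a granzyme gene only 32353 bases from *Mcpt8* and named after its values were seen, was higher as well, with 3.21 normalized counts in control cells and 23.2 in *Irf8*-OE. *Cpa3* lies apart from both clusters, and of the 4 other protein-coding genes within 150000 bases of it, only *Cpb1*, a pancreatic-type carboxypeptidase gene 6083 bases away, was listed. *Cpb1*, named after its values were seen, averaged 26.0 normalized counts in control cells and 6.68 in *Irf8*-OE, a log2 difference of -1.89. Related proteases can share reads, but of the distinct stretches of 50 bases in the annotated transcripts, 0 of 1466 for *Cpa3*, 0 of 1636 for *Tpsb2*, 0 of 998 for *Mcpt8* and 0 of 1171 for *Prss34* occurred in transcripts of another gene.

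The listed genes with the pattern most like each protease were found from the root mean square difference of centred log2 values over the 5 samples, among 610 genes with a mean of at least 100 normalized counts. *Cpa3* was nearest to *Txk*, a kinase gene of the Tec family, at 0.122, *Il1rl1* at 0.139 and *Tcrg-C1*, a T cell receptor constant segment, at 0.152. *Tpsb2* was nearest to *Serpina3g*, a serine protease inhibitor gene, at 0.0438, *A4galt*, a glycosyltransferase gene, at 0.0618 and *Atp8b5* at 0.0702. *Mcpt8* was nearest to *Tcaf2* at 0.0768, *Oasl2*, an interferon-induced gene, at 0.0790 and *Col3a1*, a fibrillar collagen gene, at 0.0811. *Prss34* was nearest to *Kctd14* at 0.0738, *C1qa*, the complement component gene of macrophages, at 0.124 and *Cbln1* at 0.177. Within the pairs the distance was 0.247 between *Cpa3* and *Tpsb2* and 0.474 between *Mcpt8* and *Prss34*. Each protease thus had at least 3 listed genes of other families nearer to it than its own partner, and distances across the pairs were 2.63 to 3.26. The distances include the genotype difference by which the genes had been listed, so they are a description and no shared control is read from them.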

How the data were processed

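RNA-seq reads of 3 *Irf8*-OE and 2 control samples had been processed by the authors, whose processing notes name fastp, HISAT2 2.0.5, featureCounts 1.5.0-p3, DESeq2 1.20.0, edgeR 3.22.5 and the build mm10, without saying which step each served. The deposited signal values are normalized counts, read counts scaled by a size factor for each sample, and cover the 1355 genes that had passed the authors' thresholds. Genes outside this list are not analysed here. The deposited table also holds group means, fold changes in log2 and p-values of the authors' own comparison, none of which were used.

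The values, as log2(normalized counts + 1), were fitted in limma 3.58.1 under R 4.3.3 with a mean-variance trend and no covariates. The sex difference could not be separated from the genotype, and the replicate number was fitted only as an alternative. Calls needed a Benjamini-Hochberg adjusted p-value under 0.05 over all 1355 genes and an absolute log2 difference above 1. Fold changes are ratios of mean normalized counts. The members and the gene lists were chosen with earlier results of these data known. Named genes are the 4 members, *Irf8*, up to 8 of the most abundant listed genes of each of the 4 main lists, the 3 genes nearest to each member, and sex-linked genes as ranges. Other genes, among them *Itgae*, *Cd24a*, *Itga2b*, *Jchain*, *Mzb1*, *Epx*, *Cpb1*, *Gzme*, *Mir7007* and further neutrophil and eosinophil genes, were named after their values were seen. Whole reads were recovered in 100% of the values (within 0.001 reads), with 0.934 to 1.12 normalized counts per read, so that 3 reads, the limit that a count of 0 allows, are worth 2.80 to 3.37 normalized counts. Intervals of shares are Wilson intervals and cover counting error only. Replicates of a genotype differed by more than sampling noise and were each counted. Exon lengths and coordinates are those of the authors' file. GENCODE vM21 (GRCm38) held 1354 of the 1355 identifiers, 1313 with the same start and end. The alternatives were quantile normalization, pseudocounts of 0.1 and 10, a filter at 10 normalized counts, edgeR 4.0.16 on the recovered reads, the replicate number as a block, other totals for the shares and leaving out each sample. edgeR without the third *Irf8*-OE sample, whose step of 1.00 normalized counts per read makes recovered reads hard to tell from rounded values, was chosen after seeing the data.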

Additional observations from a re-analysis of the deposited data

How the results depend on the processing

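Of 139 values recomputed under the alternatives, 129 stayed within the spread between replicates or, for counts, within 1.5 times the value reported, and none changed sign. Quantile normalization set the difference of *Cpa3* to 0 by its construction and gave log2 differences of -1.80 for *Tpsb2* and 2.69 for *Mcpt8* and -4.04 for the contrast of the pairs. It called 499 listed genes higher and 524 lower, against 787 and 556 in the fit as reported. The share of the 4 proteases, taken over the other listed reads only, differed by -20.5 percentage points. When samples were left out 1 at a time, the log2 difference ranged from -3.06 to -2.93 for *Cpa3*, from -2.62 to -2.54 for *Tpsb2*, from 2.71 to 2.87 for *Mcpt8* and from 3.38 to 3.89 for *Prss34*, and the contrast of the pairs from -6.10 to -5.90. edgeR's quasi-likelihood test on the recovered reads called 796 genes higher and 557 lower, or 775 and 547 without the third *Irf8*-OE sample, a choice made after seeing the data. Its log2 differences were -2.99 for *Cpa3*, -2.57 for *Tpsb2*, 2.79 for *Mcpt8* and 3.64 for *Prss34*.

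With the replicate number of the titles as a block, the log2 differences were -3.06 for *Cpa3*, -2.54 for *Tpsb2*, 2.80 for *Mcpt8* and 3.68 for *Prss34*, and 545 listed genes were called lower and 774 higher. The third *Irf8*-OE sample is alone in its block and adds nothing to these values. Deviations of same-numbered samples correlated at -0.0034 and 0.021 over 611 genes. The descriptions, unlike the titles, label the same controls WT2 and WT3, and by those numbers the correlations were -0.021 and -0.018. With 2 controls, whose deviations mirror each other, these correlations cannot settle whether any samples were paired. The limits of the values above are the list of genes already called, the 2 controls, the sex difference that follows the genotype, and the low reads of *Mcpt8* and *Prss34* in the controls.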

Other observations

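Genes of other granulocytes, named here after their values were seen, were also listed in both directions. *Mpo*, the myeloperoxidase of neutrophil primary granules, averaged 10.8 normalized counts in control cells and 996 in *Irf8*-OE, a log2 difference of 6.40. The serine proteases stored with it, *Prtn3* and *Elane*, went from 206 to 548 and from 124 to 274. *Ly6g*, a surface marker of later neutrophils, went the other way, from 164 to 9.68 normalized counts. *Epx*, the peroxidase of eosinophil granules, had 0 reads in both controls and averaged 91.2 ± 13.3 (SD, n = 3) in *Irf8*-OE, which is at least 29.2-fold higher than the 3.13 normalized counts that 3 reads per control library are worth. *Prg3*, a major basic protein homologue of the same granules, was the other higher gene of the eosinophil list. The other 4 of the 6 listed eosinophil genes were lower, with log2 differences of -1.78 for *Siglecf*, -1.08 for *Ear6*, -2.94 for *Il5ra* and -2.63 for *Ccr3*. *Mir7007* lies within an intron of *Cpa3* on the same strand and was listed with 235 and 36.8 normalized counts, which cannot be told apart from reads of *Cpa3* itself.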
